A study of Homo sapiens with 8 samples.

Results

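Transcripts of 40 genes of the NF-kB pathway were followed in tumours of H2122, a human lung cancer cell line, grown as xenografts. The genes were picked by symbol. They were the 5 NF-kB subunits, 5 genes of the IkB family, and 5 kinases or kinase scaffolds that activate the pathway. The others were 4 receptors, 12 adaptors, 4 enzymes or adaptors that switch the signal off, and 5 target genes outside these classes. All 40 were found among the 59050 gene symbols of the count files, and 38 had enough reads to be tested. The 2 groups were 4 parental tumours, wild type for the edit, and 4 tumours with a knockout of SMARCA4, the gene of a catalytic subunit of the SWI/SNF complexes that move nucleosomes. All 8 tumours received vehicle, and no agent or allele beyond these is listed. Whether the knockout cells were a single clone, which mouse strain carried the tumours and whether each tumour came from its own animal are not given in the sources used here. The p-values set the difference between groups against the spread of these 8 tumours within their groups. An effect of clone or animal cannot be told apart from that of the knockout.

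NF-kB is a family of dimeric transcription factors. In resting cells the dimers are held in the cytoplasm by IkB proteins, or by the unprocessed precursors encoded by NFKB1 and NFKB2. In the canonical branch, receptors of the TNF, IL-1 and Toll-like families recruit adaptors and ubiquitin ligases that switch on the IKK complex, which marks IkB for destruction and frees dimers such as RELA with the NFKB1 product. In the alternative branch, the kinase encoded by MAP3K14 accumulates once TRAF and BIRC proteins stop degrading it, and the NFKB2 precursor is processed to release RELB dimers. NF-kB induces many of its own regulators, among them NFKBIA, TNFAIP3, BIRC3, NFKB2 and RELB, so transcript levels of these genes are commonly read as output of the pathway. In epithelial tumours the pathway is known for inflammatory and survival genes.

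Libraries held 19785922 to 23191698 gene counts in parental and 20662882 to 21981123 in knockout tumours. SMARCA4 itself was at 198 to 235 CPM (counts scaled to library size, with TMM factors) in parental and 22.3 to 31.1 CPM in knockout tumours, so the label of each library was met. Epithelial marker genes were present in every tumour, with a summed level of 6712 to 7658 CPM in parental tumours and 5114 to 6751 CPM in knockout ones over 8 genes, 3 of them called lower. A gene is called when the adjusted p (Benjamini-Hochberg, over all 16219 genes tested) of edgeR's quasi-likelihood F-test is under 0.05. Of all genes tested, 27.0% were called, 13.0% higher and 14.1% lower in knockout tumours.

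Reads that resemble leukocyte transcripts differed between tumours. Of 23 leukocyte marker genes, 16 passed the filter on low counts, and S100A8 and S100A9, which epithelial cells also express, were the only 2 called, both higher in knockout tumours. Over the other markers of the list, those under the filter included, the summed level was 36.1, 144, 118 and 37.3 CPM in parental replicates 1 to 4. In knockout replicates 1 to 4 it was 68.6, 61.2, 58.4 and 41.0 CPM. PTPRC, the pan-leukocyte phosphatase, ranged from 1.40 to 11.03 CPM in parental tumours, and the B-cell genes CD79A and MS4A1 were at most 0.223 and 0.357 CPM in any library. Parental replicates 2 and 3 therefore stood above the other libraries in this respect, and results whose call depends on them are given with and without them. Of 10 endothelial markers 2 were tested and 1 was lower, of 10 fibroblast markers 6 were tested and 1 was higher, and of 10 skeletal muscle markers 0 passed the filter. The summed muscle level was 35.2 CPM in parental replicate 2, 16.2 CPM in knockout replicate 4 and 7.31 CPM in parental replicate 4, against 0.439 to 1.03 CPM in the other 5 libraries. In bulk RNA, fewer cells of a type and less RNA per cell cannot be told apart.

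The DNA that NF-kB dimers bind is known as the kappaB site. Promoter windows of 300 bases (250 before and 50 after each transcription start, RefSeq on GRCh38.p14) were at hand for 34 of the 40 genes, and a script searched both strands for the 10-base kappaB consensus, a window with several or overlapping matches counting once. The sequences below show the match (capitals) with its flanks, 5′ to 3′ on the gene's strand, for 3 genes that rose in knockout tumours and for 4 autoregulated genes that were not called. They are shown because the same element stands before both kinds of gene. For NFKB2 and MAP3K8, further matches lie outside the stretches shown.

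BIRC3, higher, chr11:102317234-102317433, plus strand: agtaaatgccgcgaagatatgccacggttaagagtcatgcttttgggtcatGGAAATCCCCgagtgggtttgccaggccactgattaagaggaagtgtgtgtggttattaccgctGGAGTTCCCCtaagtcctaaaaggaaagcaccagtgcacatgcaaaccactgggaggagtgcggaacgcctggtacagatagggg
NFKB2, higher, chr10:102394461-102394490, plus strand: gaaacgtcatGGGAATTCCCCcctccgggg
NFKB2, higher, chr10:102395519-102395548, plus strand: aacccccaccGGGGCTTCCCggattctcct
MAP3K8, higher, chr10:30433982-30434011, plus strand: ggggagacgcGGAATTTCCCagcgcggggg
NFKB1, not called, chr4:102501300-102501329, plus strand: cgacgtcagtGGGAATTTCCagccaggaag
REL, not called, chr2:60881517-60881546, plus strand: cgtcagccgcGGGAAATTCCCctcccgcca
NFKBIA, not called, chr14:35404811-35404840, minus strand: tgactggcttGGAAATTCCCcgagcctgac
TNFAIP3, not called, chr6:137867188-137867217, plus strand: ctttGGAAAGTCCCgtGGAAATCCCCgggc

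A match lay in 20 of 59 windows of the member genes (33.9%), against 2075 of all 35116 windows (5.91%). Counted by gene, 15 of 34 members had a match in any window (44.1%), as did 988 of 10990 genes tested (8.99%). The members were picked as genes of the pathway, known NF-kB targets among them, so these contrasts are no independent result. The share was 3 of 7 among members called higher, 1 of 2 among those called lower 10 of 24 among those not called and 1 of 1 under the filter. A match is a description of these letters and not a bound site.

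In knockout tumours 9 members were higher and 2 lower, out of 38 tested. This is 28.9% of the tested members, near the 27.0% of all genes tested. By direction, 23.7% of the members were called higher, against 13.0% of all genes, and 5.26% lower, against 14.1%. The higher genes were NFKB2, RELB, MAP3K8, TRAF2, BIRC2, BIRC3, TNFAIP8, SOD2 and IER3. IRAK1 and TAB2 were the lower ones. The median log2 fold change over the 38 was 0.12, against 0.00345 over all genes tested, and BIRC3 was the single called member with a change of at least 2-fold. Knockout and parental values did not overlap for 9 of the 38, where 29.3% of all genes tested did not.

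**Figure D1:**
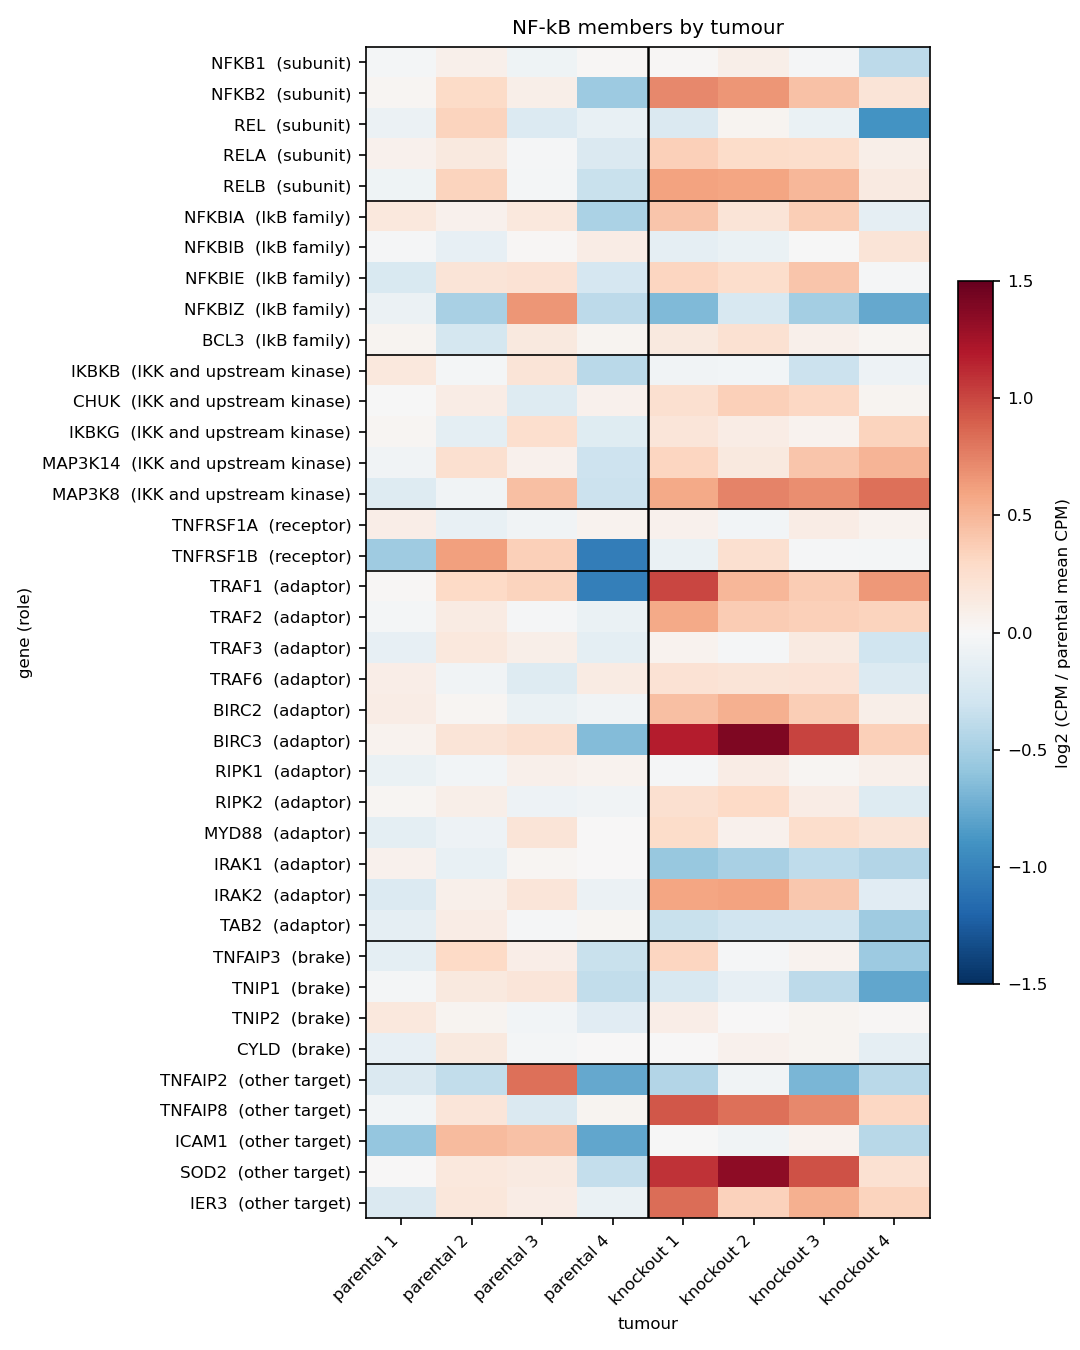
Heat map of the 38 tested members (rows, by role) in the 8 tumours (columns); colour is log2 of CPM over the gene's parental mean CPM. BIRC3, SOD2 and TNFAIP8 are red in all 4 knockout tumours, with knockout replicate 4 the palest, while IRAK1 and TAB2 are blue in all 4.

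**Figure D2:**
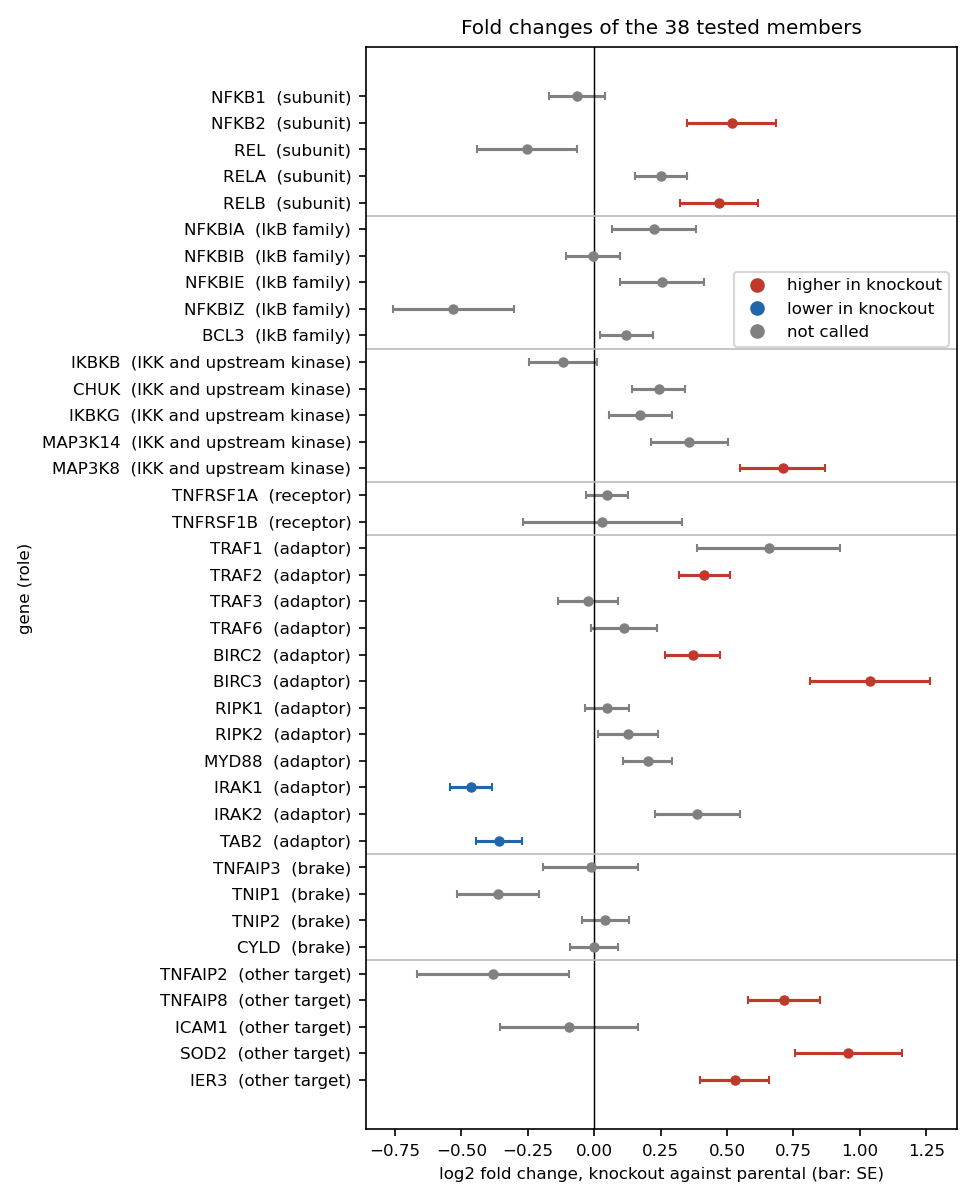
Log2 fold change of each tested member (knockout against parental, horizontal axis) with its SE as the bar, ordered by role. The 9 higher genes lie between 0.37 and 1.04 and the 2 lower ones at -0.36 and -0.46; the IkB family and the brakes hold no call.

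The receptors did not separate the groups. TNFRSF1A, the widely expressed TNF receptor, was at 126 ± 8.50 CPM in parental tumours and 130 ± 5.56 CPM in knockout ones (SD, n = 4 each), with a log2 fold change of 0.05 and SE 0.0794 (edgeR adjusted p = 0.698). TNFRSF1B, the TNF receptor found mostly on leukocytes and endothelium, was at 5.64, 12.5, 10.5 and 3.95 CPM in parental replicates 1 to 4 and at 7.62, 9.60, 8.03 and 7.98 CPM in knockout replicates 1 to 4. The parental tumours thus spanned the whole knockout range, with replicates 2 and 3 on top, the same libraries that led in leukocyte markers. The log2 fold change was 0.03 (edgeR adjusted p = 0.954), and 0.79 (adjusted p = 0.0120) without parental replicates 2 and 3. A rise without these highest tumours was fixed beforehand, and only 2 parental tumours remain. CD40, the receptor of antigen-presenting cells, had 1, 6, 11 and 2 counts in parental and 4, 1, 4 and 3 in knockout replicates 1 to 4. TNFRSF9, a costimulatory receptor of T cells, had 3, 16, 4 and 7 counts in parental and 10, 6, 10 and 9 in knockout replicates 1 to 4. Both fell under the filter, and their CPM did not differ by an exact two-sided permutation test (p = 0.429 for CD40 and p = 0.857 for TNFRSF9, 4 tumours against 4; the smallest possible p is 0.0286).

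Among the adaptors, 3 were higher and 2 lower of 12 tested (41.7% called, against 27.0% of all genes tested). BIRC3 (chromosome 11, 102317450 to 102339403, GENCODE 29 on GRCh38), a ubiquitin ligase of TNF receptor complexes and a known NF-kB target, was at 50.6, 56.0, 58.0 and 31.3 CPM in parental replicates 1 to 4. In knockout replicates 1 to 4 it was at 111, 129, 99.1 and 62.9 CPM. Every knockout tumour was above every parental one, although knockout replicate 4 came close to parental replicate 3. The log2 fold change was 1.04 with SE 0.227, or 2.05-fold (edgeR adjusted p = 0.00571). Its neighbour BIRC2 (chromosome 11, 102347211 to 102378670), a related ligase that degrades the MAP3K14 product, rose less, from 60.7 ± 3.83 to 78.6 ± 10.2 CPM (mean ± SD of 4 tumours), and its log2 fold change was 0.37 with SE 0.104 (edgeR adjusted p = 0.0205). For BIRC2 knockout replicate 4, at 64.5 CPM, lay under parental replicate 1, at 65.6 CPM. The call on BIRC2 was lost without parental replicate 3 (edgeR adjusted p = 0.0542), knockout replicate 1 (0.0630) or knockout replicate 2 (0.0672), and also without parental replicates 2 and 3 together (0.0818).

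TRAF2 (chromosome 9, 136881912 to 136926607), which carries BIRC2 and BIRC3 to TNF receptors, was at 18.3, 20.4, 18.5 and 17.4 CPM in parental replicates 1 to 4 and at 27.8, 24.2, 23.8 and 23.6 CPM in knockout replicates 1 to 4. The groups did not overlap, and the log2 fold change was 0.41 with SE 0.0960 (edgeR adjusted p = 0.00808). TRAF1, a TRAF protein without the ligase domain and itself an NF-kB target, was at 4.14, 5.03, 5.14 and 1.998 CPM in parental and at 8.18, 5.75, 5.32 and 6.40 CPM in knockout replicates 1 to 4. These groups did not overlap either, yet the log2 fold change of 0.66 (SE 0.267) was not called (edgeR adjusted p = 0.0941). Without parental replicates 2 and 3, the highest parental tumours for TRAF1, it was 1.07 (adjusted p = 0.0203). Without parental replicate 4, the lowest tumour, it was 0.42 and not called. TRAF3 (log2 fold change -0.02, edgeR adjusted p = 0.908) and TRAF6 (0.11, adjusted p = 0.544), the adaptors of the alternative branch and of IL-1 receptor signalling, were not called. RIPK1 and RIPK2, the kinase scaffolds of TNF receptor and NOD signalling, had log2 fold changes of 0.05 and 0.13 (edgeR adjusted p = 0.706 and 0.448).

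In the IL-1 and Toll-like receptor arm, IRAK1 and TAB2 were called, both lower. IRAK1 (chromosome X, 154010500 to 154019980), the kinase that MYD88 complexes recruit, was at 268, 236, 261 and 257 CPM in parental and at 172, 183, 197 and 189 CPM in knockout replicates 1 to 4. The lowest parental value was above the highest knockout value, and the log2 fold change was -0.46 with SE 0.0801, or 1.38-fold lower (edgeR adjusted p = 0.00134), the smallest adjusted p among the members. TAB2 (chromosome 6, 149218641 to 149411613), which ties ubiquitin chains to the kinase upstream of IKK, was at 84.9, 100.4, 92.0 and 94.6 CPM in parental and at 73.6, 76.2, 76.1 and 64.4 CPM in knockout replicates 1 to 4. It too was lower in every knockout tumour (log2 fold change -0.36, SE 0.0872, edgeR adjusted p = 0.0106). IRAK2, a relative of IRAK1 that is induced during the response, was at 38.5 to 50.5 CPM in parental tumours. In knockout replicates 1 to 4 it was at 66.9, 67.6, 58.7 and 39.4 CPM. The last of these lay within the parental range, and the log2 fold change of 0.39 was not called (edgeR adjusted p = 0.0969), whereas it was 0.54 (adjusted p = 0.00593) without knockout replicate 4. MYD88, the common adaptor of the arm, had a log2 fold change of 0.20 (edgeR adjusted p = 0.137).

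**Figure D3:**
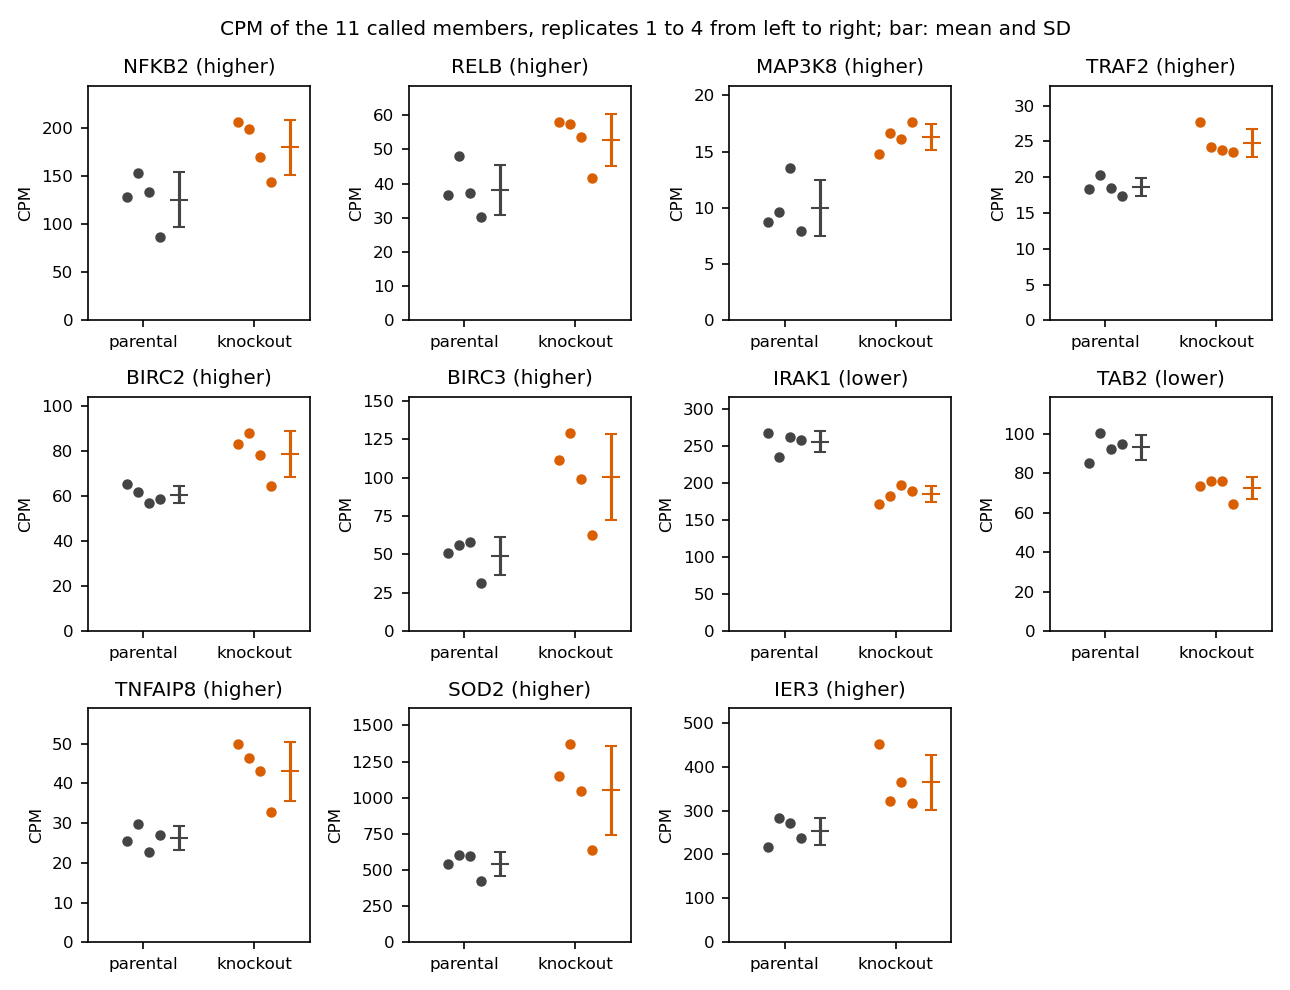
CPM of the 11 called members in each tumour (vertical axes start at 0), replicates 1 to 4 from left to right, with mean and SD. Groups do not overlap for MAP3K8, TRAF2, BIRC3, IRAK1, TAB2, TNFAIP8, SOD2 and IER3, whereas they do for NFKB2, RELB and BIRC2.

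Of the 5 kinases and scaffolds that activate NF-kB, MAP3K8 was called. This gene (chromosome 10, 30433937 to 30461833) encodes a kinase that is held by the NFKB1 precursor and feeds the ERK pathway. It was at 8.70, 9.62, 13.6 and 7.95 CPM in parental and at 14.8, 16.6, 16.1 and 17.6 CPM in knockout replicates 1 to 4, with no overlap. The log2 fold change was 0.71 with SE 0.162, or 1.63-fold (edgeR adjusted p = 0.00732). MAP3K14, the kinase of the alternative branch, was at 8.33 ± 1.31 and 10.7 ± 1.15 CPM (SD, n = 4 each) and was not called (log2 fold change 0.36, edgeR adjusted p = 0.0931). It shares 713 exon bases with MAP3K14-AS1 on the opposite strand, and the strand setting of the counts is not given in the sources used here. Without parental replicate 2 its value was 0.45 (edgeR adjusted p = 0.0426). Without parental replicates 2 and 3, the highest parental tumours for MAP3K14, it was 0.53 (adjusted p = 0.0312). The catalytic IKK subunits CHUK and IKBKB had log2 fold changes of 0.24 and -0.12 (edgeR adjusted p = 0.0942 and 0.539), and CHUK was called without knockout replicate 4 (0.31, adjusted p = 0.0377) and with upper-quartile scaling (0.28, adjusted p = 0.0437). The regulatory subunit IKBKG, at 18.3 ± 2.57 and 20.7 ± 1.82 CPM (SD, n = 4 each), was not called (0.17, edgeR adjusted p = 0.314).

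Among the 5 subunits, the NFKB2 and RELB pair of the alternative branch was higher in knockout tumours. NFKB2 (chromosome 10, 102394110 to 102402529) was at 128, 153, 134 and 86.3 CPM in parental and at 206, 198.6, 170 and 143 CPM in knockout replicates 1 to 4. The groups overlapped, since parental replicate 2 was above knockout replicate 4. The log2 fold change was 0.52 with SE 0.168 (edgeR adjusted p = 0.0406). RELB (chromosome 19, 45001430 to 45038198) was at 36.6, 48.1, 37.3 and 30.3 CPM in parental and at 58.1, 57.3, 53.6 and 41.7 CPM in knockout replicates 1 to 4, with the same 2 tumours overlapping (log2 fold change 0.47, SE 0.147, edgeR adjusted p = 0.0353). Both calls sat near the threshold. They were lost without parental replicate 1 (adjusted p = 0.0807 for NFKB2 and 0.0866 for RELB), parental replicate 3 (0.0594 and 0.0710) or parental replicate 4 (0.0614 and 0.0792). They were also lost without knockout replicate 1 (0.112 and 0.0968), knockout replicate 2 (0.105 and 0.0936) or knockout replicate 3 (0.0672 and 0.0778).

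RELA, the main transactivating subunit of the canonical branch, was at 128 ± 13.7 and 153 ± 11.5 CPM in the parental and the knockout group (mean ± SD of 4 tumours), and its log2 fold change of 0.25 (SE 0.0974) was not called (edgeR adjusted p = 0.0791). It was called with upper-quartile scaling (0.29, adjusted p = 0.0435), without parental replicate 2 (0.30, adjusted p = 0.0420) and without knockout replicate 4 (0.30, adjusted p = 0.0466). NFKB1 (log2 fold change -0.07, SE 0.106, edgeR adjusted p = 0.689) and REL (-0.25, SE 0.188, adjusted p = 0.356) were not called. Knockout replicate 4 was the lowest tumour for both, at 47.5 CPM for NFKB1 and 12.8 CPM for REL, while the other knockout tumours lay within the parental ranges or close to them. Per kilobase of annotated exon, the parental levels were 28.0 ± 6.29 CPM for NFKB2, 23.5 ± 2.50 for RELA, 12.6 ± 2.44 for RELB, 10.00 ± 0.409 for NFKB1 and 1.80 ± 0.323 for REL (SD, n = 4 each). NFKB2 and RELA, the neighbours at the top of that order, overlapped within the parental group, as did RELB and NFKB1. Of the 13170 exon bases of REL, 5702 are shared with AC010733.2 on the same strand, so its level and place are uncertain.

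Ratios of 2 members within a tumour need no library scaling. NFKB2 stood at 2.096, 2.33, 2.23 and 1.36 counts per NFKB1 count in parental and at 3.25, 2.99, 2.75 and 3.02 in knockout replicates 1 to 4. All 4 knockout ratios were above all 4 parental ones (p = 0.0286 by an exact permutation test, two-sided, which is the lowest it can give, and 0.114 after Benjamini-Hochberg adjustment over 6 ratios). With 6 ratios and 4 tumours against 4, adjustment passes 0.05 only where several ratios reach that smallest p. RELB to RELA and BIRC3 to BIRC2 were 0.22 and 0.67 higher in mean log2 ratio, and neither difference passed (exact permutation p = 0.0571 each, 0.114 after adjustment). TNFRSF1B to TNFRSF1A (exact permutation p = 0.771), NFKBIE to NFKBIB (0.200) and TRAF1 to TRAF2 (0.429) gave smaller differences against their spread.

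None of the 5 IkB family genes was called by edgeR with all tumours and the filter on low counts, or by DESeq2. Among them 1, NFKBIZ, had an unadjusted edgeR p under 0.05. At 198.6, 185, 198 and 127 CPM in parental and 237, 202, 228 and 161 CPM in knockout replicates 1 to 4, NFKBIA, the classical feedback inhibitor, overlapped between groups (log2 fold change 0.23, SE 0.156, edgeR adjusted p = 0.322). Replicate 4 was the lowest tumour in both groups. NFKBIE, another feedback inhibitor, had a log2 fold change of 0.26 (edgeR adjusted p = 0.265), and NFKBIB of -0.00418 (adjusted p = 0.983). NFKBIZ, a nuclear IkB protein needed for a subset of inflammatory genes, was at 60.9, 46.1, 102.5 and 49.4 CPM in parental and at 40.9, 54.8, 45.6 and 38.0 CPM in knockout replicates 1 to 4. One tumour, parental replicate 3, stood far above the rest, and the log2 fold change of -0.53 was not called (edgeR adjusted p = 0.111). It was called with no filter on low counts (-0.55, adjusted p = 0.0244) and without parental replicate 2 (-0.66, adjusted p = 0.0421). Without parental replicate 3, the tumour that stood apart, it was -0.22 (edgeR adjusted p = 0.294). BCL3, the nuclear partner of NFKB2-derived dimers, had a log2 fold change of 0.12 (edgeR adjusted p = 0.402).

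The 4 brakes on the pathway held no call by edgeR with all tumours and no covariate, or by DESeq2, either. Among them 1, TNIP1, had an unadjusted edgeR p under 0.05. TNIP1 was called by edgeR with the replicate number as a block (-0.37, adjusted p = 0.0246) and with the full leukocyte score as a covariate (-0.40, adjusted p = 0.0262). TNFAIP3, the ubiquitin-editing enzyme that ends TNF signalling, was at 62.9 ± 12.1 CPM in parental tumours and 62.3 ± 14.6 CPM in knockout ones (SD, n = 4 each; log2 fold change -0.01, SE 0.178, edgeR adjusted p = 0.968). The deubiquitinase gene CYLD (log2 fold change -0.00152, SE 0.0900, edgeR adjusted p = 0.993) and TNIP2 (0.04, SE 0.0884, adjusted p = 0.770) were as close. TNIP1, which binds the TNFAIP3 product, was at 322, 363, 373 and 254 CPM in parental and at 279, 302, 251 and 191 CPM in knockout replicates 1 to 4, a log2 fold change of -0.36 (edgeR adjusted p = 0.108). Without parental replicate 4, its lowest parental tumour, the value was -0.47 (adjusted p = 0.0333), and without parental replicates 2 and 3, its highest ones, it was -0.18 (adjusted p = 0.450).

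Of the 5 remaining target genes, 3 were higher in knockout tumours, where 13.0% of all genes tested were called higher. SOD2 (chromosome 6, 159669057 to 159745186), the mitochondrial superoxide dismutase, was at 544, 604, 595 and 424 CPM in parental and at 1149, 1373, 1046 and 636 CPM in knockout replicates 1 to 4. Knockout replicate 4 was just above the highest parental tumour and the other knockout tumours well above it. The log2 fold change was 0.96 with SE 0.202, or 1.94-fold (edgeR adjusted p = 0.00470). The annotation holds 2 gene entries with this symbol and an exon overlap with WTAP on the opposite strand, which was itself not called (log2 fold change 0.16, edgeR adjusted p = 0.159).

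TNFAIP8 (chromosome 5, 119268692 to 119399688), an inhibitor of apoptosis induced by TNF, was at 25.6, 29.8, 22.7 and 27.0 CPM in parental and at 49.9, 46.4, 43.2 and 32.7 CPM in knockout replicates 1 to 4. The groups did not overlap (log2 fold change 0.71, or 1.64-fold, SE 0.136, edgeR adjusted p = 0.00251). IER3 (chromosome 6, 30743199 to 30744554), an immediate early gene that modulates cell survival, was at 217, 284, 272 and 236 CPM in parental and at 452, 322, 365 and 318 CPM in knockout replicates 1 to 4. Again the groups did not overlap (log2 fold change 0.53, SE 0.130, edgeR adjusted p = 0.0108). Per kilobase of pooled annotated exon, IER3 was the highest of the 40 members, at 186 ± 22.8 CPM in parental tumours. NFKBIA followed at 74.7 ± 14.3 (SD, n = 4 each). Parental values of IER3 and NFKBIA did not overlap, but those of NFKBIA overlapped with TNFAIP2, IRAK1 and TNIP1. The order depends on the annotated length: parental SOD2 was at 542 CPM over 18206 bases, and IER3 at 252 CPM over 1356 bases.

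ICAM1 and TNFAIP2 varied more among parental tumours than between the groups. ICAM1, an adhesion molecule for leukocytes, was at 20.7, 42.7, 42.0 and 18.0 CPM in parental and at 30.7, 29.8, 31.97 and 23.1 CPM in knockout replicates 1 to 4. Parental replicates 2 and 3, the libraries with most leukocyte signal, were above all knockout tumours and the other parental tumours below them. With all tumours the log2 fold change was -0.09 with SE 0.261 (edgeR adjusted p = 0.828), and without parental replicates 2 and 3 it was 0.57 (adjusted p = 0.0167). Those replicates were the highest tumours for ICAM1, so a rise without them was fixed beforehand, and only 2 parental tumours remain. The part of leukocyte RNA in the results for ICAM1, TNFRSF1B and TRAF1 was not tested. TNFAIP2, a TNF-induced protein that shapes membrane protrusions, was at 594 CPM in parental replicate 3 and at 197 to 289 CPM in the other parental tumours, against 208 to 322 CPM in knockout tumours. It was not called (log2 fold change -0.38, edgeR adjusted p = 0.361), and the sign turned without parental replicate 3 (0.05, adjusted p = 0.865).

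**Figure D4:**
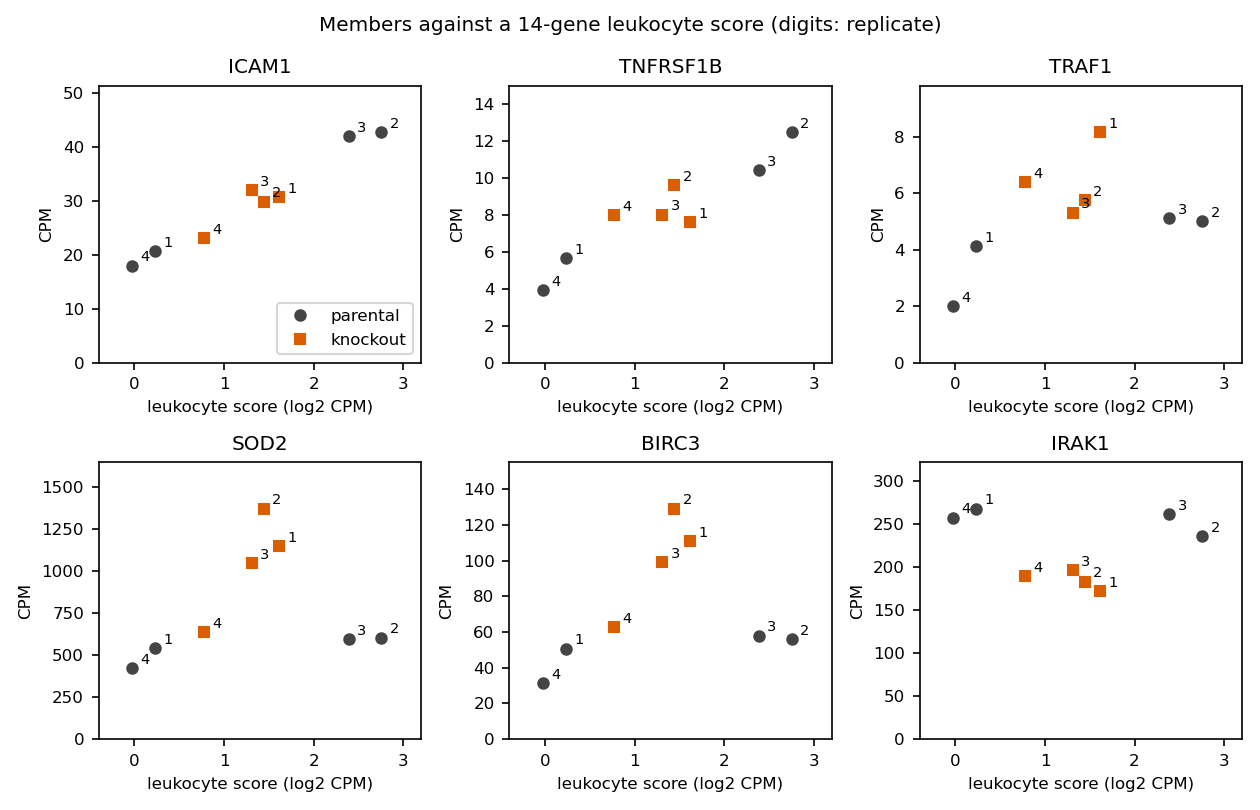
CPM of 6 members against a leukocyte score (mean log2 CPM of 14 leukocyte genes) in each tumour, digits giving the replicate. ICAM1 and TNFRSF1B are highest in parental replicates 2 and 3, where the score is 2.75 and 2.39; SOD2 and BIRC3 are higher in all knockout tumours, whose scores, 0.77 to 1.62, lie below those of these 2 tumours and above those of parental replicates 1 and 4, 0.23 and -0.03.

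All 11 calls held with the leukocyte score as a covariate, whether or not it included S100A8 and S100A9 (the second form was added after the data were seen). In both forms the knockout scores lay inside the parental range, so this adjustment is a weak check on the calls. In the short form they were 0.77 to 1.62, against -0.03 to 2.75. The full score gave 13 called members, with TRAF1 added to the higher genes and TNIP1 to the lower ones. The short form gave 16, where RELA, MAP3K14, TRAF1 and IRAK2 joined the higher genes and TNIP1 the lower ones. Of the 11 calls, 8 held under all 19 alternative analyses: MAP3K8, TRAF2, BIRC3, IRAK1, TAB2, TNFAIP8, SOD2 and IER3. The range for BIRC3 was 0.87 to 1.29 on the log2 scale when tumours were left out, and that for SOD2 0.80 to 1.14.

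**Figure D5:**
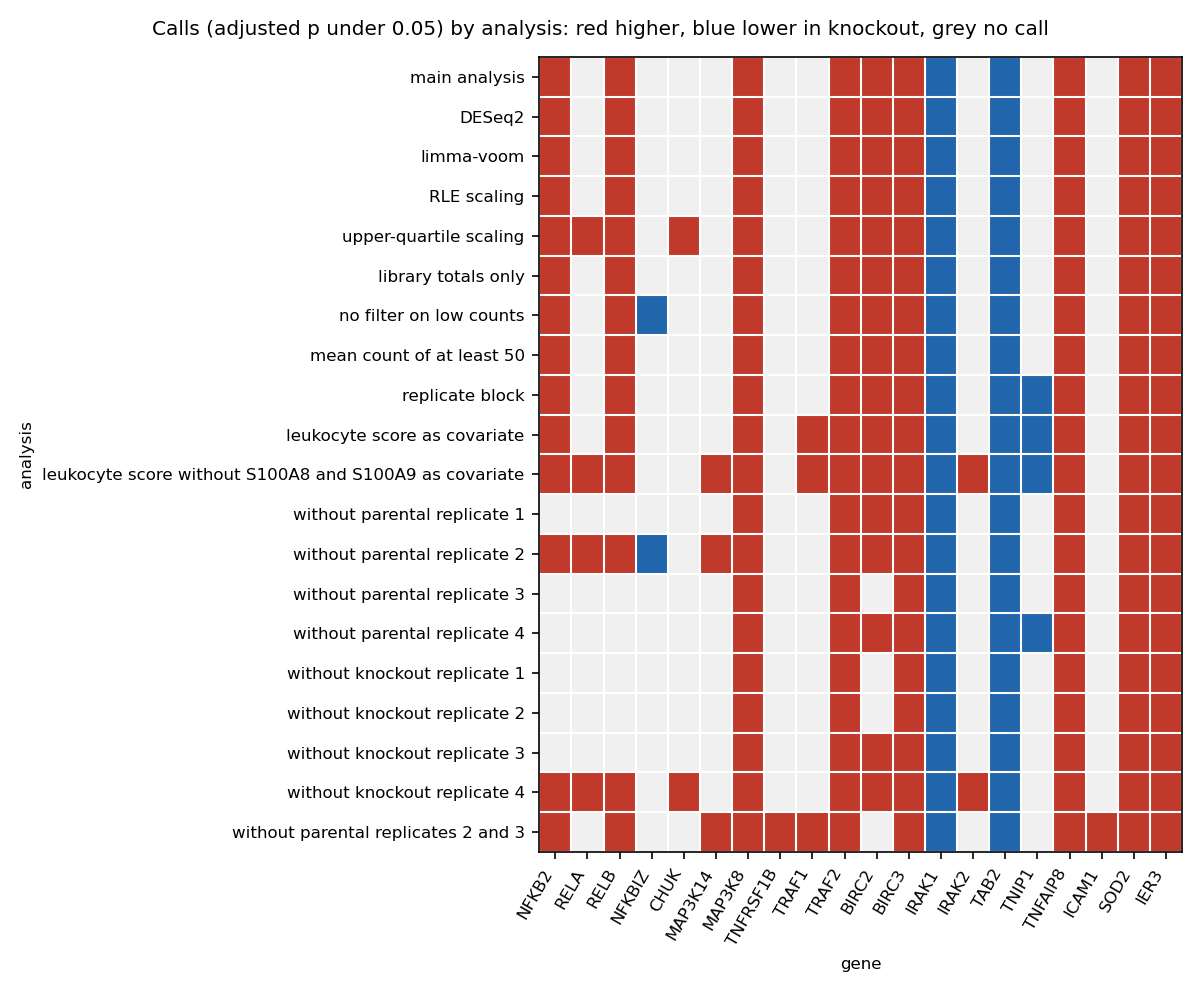
Calls at an edgeR, DESeq2 or limma-voom adjusted p under 0.05 in 20 analyses (rows) for the 20 members called in at least 1 of them (columns). Columns filled from top to bottom mark the 8 members called throughout; NFKB2, RELB and BIRC2 lose their call when single tumours are left out.

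Members also shared differences between tumours of the same group. Knockout replicate 4 was the lowest knockout tumour for 25 of the 38 tested members (65.8%), against 32.7% of all genes tested, and for 8 of the 9 members called higher. Parental replicate 4 was the lowest parental tumour for 20 members (52.6%, against 31.0% of all genes tested) and the highest for 2. Parental replicate 2 was the highest for 18 (47.4%, against 29.6%). These 2 replicates numbered 4 also had the lowest leukocyte score of their groups, at -0.03 and 0.77. Knockout replicate 4 had the largest share of reads in no annotated feature, 10.4%, while parental replicate 4 had the smallest, 6.08%. Parental replicate 2 and both replicates numbered 4 also had the highest summed levels of skeletal muscle markers. The part of leukocyte RNA, muscle RNA or read assignment in this pattern was not tested.

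Further genes of the pathway were read from the same fit by role. Of 118 tested, 25 were higher and 24 lower in knockout tumours (41.5%, against 27.0% of all genes tested), with a median log2 fold change of -0.03. By role, 8 of 24 ligands and receptors were higher and 4 lower, 4 of 35 adaptors and kinases higher and 6 lower, 0 of 19 inhibitors higher and 4 lower, and 13 of 40 targets higher and 10 lower. In that order, 50%, 28.6%, 21.1% and 57.5% were called, against 27.0% of all genes tested. In the inhibitor group, 4 were at an adjusted p under 0.05 by edgeR, a share below that of all genes tested. All were lower (21.1%, against 14.1% of all genes tested). They were NKIRAS2, TRAFD1, NLRC5 and FBXW11, the last a ubiquitin ligase subunit that promotes IkB destruction and was listed there as a regulator of IkB turnover. NLRC5 was at 23.4 and 23.2 CPM in parental replicates 2 and 3, the libraries with most leukocyte signal, and at 6.21 to 12.2 CPM in the other tumours; the part of leukocyte RNA was not tested.

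Among called genes whose groups did not overlap, with an average log2 CPM of 1 or more, the 5 largest rises came from receptors and cytokines. EDAR, a TNF-family receptor of ectodermal development that signals to NF-kB, was at 1.09 to 1.86 CPM in parental tumours and 13.5 to 18.3 CPM in knockout ones, a log2 fold change of 3.33 with SE 0.184, or 10.1-fold (edgeR adjusted p = 7.14e-07). TNFSF15, a TNF-family ligand, was at 7.48 to 12.6 CPM and 24.8 to 46.7 CPM (1.77, adjusted p = 0.000160). LIF, a cytokine of the IL-6 family, was at 35.9 to 84.4 CPM and 142 to 203 CPM (1.60, edgeR adjusted p = 0.000406). TLR6, a partner of TLR2 in lipopeptide sensing, was at 21.7 to 34.7 CPM and 61.3 to 76.3 CPM (1.35, edgeR adjusted p = 4.18e-05). IL6 itself was low, at 3.56 to 5.49 CPM in parental tumours and 10.7 to 11.1 CPM in knockout ones (1.21, edgeR adjusted p = 0.000114).

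Among called genes whose groups did not overlap, falls included those of IRAK3 and IL1RN, brakes of the IL-1 and Toll-like arm. IRAK3, an IRAK relative that restrains the pathway, was at 15.9, 15.4, 27.7 and 13.0 CPM in parental and at 0.841, 0.780, 0.373 and 0.140 CPM in knockout replicates 1 to 4, a log2 fold change of -5.07 with SE 0.391 (edgeR adjusted p = 5.62e-06). TLR2 was at 2.89 to 6.10 CPM and 1.17 to 2.24 CPM (-1.51, edgeR adjusted p = 0.00161), so it and its partner TLR6 changed in opposite directions. IL23A, a subunit of interleukin 23, was at 3.37 to 8.44 CPM and 1.63 to 2.54 CPM (-1.43, edgeR adjusted p = 0.00274). IL1RN, the antagonist of the IL-1 receptor, was at 15.7 to 20.8 CPM and 6.14 to 7.56 CPM (-1.33, edgeR adjusted p = 3.48e-05). Beside it, and chosen after their values were seen, the receptor gene IL1R1 rose (log2 fold change 1.02, edgeR adjusted p = 0.000129), the ligand gene IL1B rose (1.14, adjusted p = 0.00121) and the ligand gene IL1A fell (-0.78, adjusted p = 0.00317).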

How the data were processed

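The authors deposited 1 file of raw read counts per tumour (8 files, 59050 gene symbols and 5 summary lines each, replicates not pooled). Per the submitters' processing notes, TopHat2 2.1.1, HTSeq 0.11.0 and build hg38 were used; annotation, strand setting and any removal of mouse reads are not given in the sources used here, so host reads may be counted as human. Summary lines were left out. Genes were filtered by filterByExpr (minimum count 10, minimum total 15), scaled by TMM and tested with edgeR 4.0.16 (R 4.3.3), quasi-likelihood F-test, no covariate, p-values adjusted over 16219 genes; the SE is the log2 fold change over the root of F. The test was checked on simulated counts. No same-group libraries agreed within sampling noise (chi-square per degree of freedom at least 9.05). Same-numbered tumours did not deviate together (correlations -0.223 to 0.0918). Exon lengths, which pool all annotated exons of a symbol, and positions are from GENCODE 29. Named genes are SMARCA4, the 40 members and the 5 largest rises and 5 largest falls among other pathway genes called, whose average log2 CPM was 1 or more and whose groups did not overlap. Of these, 1 fall is not reported here. Of the members, 16 share exon bases with another gene, 11 of them with one on the opposite strand, so their counts are uncertain. Members and lists were chosen with earlier results of these data known. Alternatives used DESeq2 1.42.0, limma-voom (limma 3.58.1), other scalings and filters, the replicate number, a leukocyte score and fewer tumours.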

Additional observations from a re-analysis of the deposited data

Results flagged for a closer look

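Of 114 sets of 4 values examined, 6 held a tumour far from the other 3, where about 5% are flagged by chance. IKBKB stood at 64.7 CPM in knockout replicate 3 and at 76.6 to 78.3 CPM in the other knockout tumours. TRAF2 stood at 27.8 CPM in knockout replicate 1 and at 23.6 to 24.2 CPM in the others. TRAF6 stood at 16.3 CPM in knockout replicate 4 and at 21.5 to 22.0 CPM in the others. EDAR stood at 1.09 CPM in parental replicate 1 and at 1.74 to 1.86 CPM in the other parental tumours. The ratio of TNFRSF1B to TNFRSF1A counts was 0.0785 in knockout replicate 2 and 0.0579 to 0.0610 in the others. The ratio of NFKBIE to NFKBIB counts was 0.241 in knockout replicate 4 and 0.359 to 0.383 in the others.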

How the results depend on the processing

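Across the 19 alternatives the number of genes called ran from 3501 (without knockout replicate 1) to 5236 (leukocyte score without S100A8 and S100A9, added after the data were seen), against 4385. Members called ran from 8 to 16, against 11, other pathway genes called from 35 to 57, against 49, and the members' median log2 fold change from 0.09 to 0.23. SMARCA4 stayed between -3.08 and -2.93. With the replicate number as a block, 3871 genes and 12 members were called, TNIP1 being added, and 0 same-numbered pairs had the best correlation of their row. With upper-quartile scaling 54.1% of the genes called were higher, against 47.9%.

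No called member changed sign. Signs turned for members that were not called and for 1 ratio, and the cause was not tested. With upper-quartile scaling the log2 fold change became 0.035 for NFKBIB, 0.012 for TRAF3, 0.018 for TNFAIP3 and 0.034 for CYLD. With a mean count of at least 50 it became 0.015 for NFKBIB, 0.0025 for TNFAIP3 and 0.016 for CYLD. It became 0.0046 for ICAM1 with limma-voom and 0.0093 for NFKBIB with the leukocyte score, and with the short score 0.0050 for TNFAIP3, 0.0021 for CYLD and 0.030 for ICAM1. When single tumours were left out, the ranges that crossed 0 were -0.118 to 0.032 for NFKB1, -0.075 to 0.039 for NFKBIB, -0.206 to 0.311 for TNFRSF1B, -0.078 to 0.064 for TRAF3, -0.144 to 0.130 for TNFAIP3 and -0.016 to 0.090 for TNIP2. They were -0.048 to 0.048 for CYLD, -0.575 to 0.048 for TNFAIP2, -0.290 to 0.101 for ICAM1 and -0.194 to 0.414 for the log2 ratio of TNFRSF1B to TNFRSF1A. Without parental replicates 2 and 3 the values were -0.036 for TNFRSF1A, 0.106 for TRAF3, -0.011 for TRAF6, 0.218 for TNFAIP3, 0.051 for CYLD, 0.074 for TNFAIP2 and 0.572 for ICAM1. The last was a call, with the 2 highest tumours for ICAM1 left out. CD40 and TNFRSF9, with at most 16 counts in a library, are limited by depth.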

Other observations

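Among the other NF-kB targets of the list, acute-phase and secreted defence genes were chosen here after their values were seen. SAA1, which encodes serum amyloid A, was at 9.53, 9.37, 32.2 and 4.97 CPM in parental and at 1.78, 5.66, 1.03 and 0.794 CPM in knockout replicates 1 to 4 (log2 fold change -2.61, edgeR adjusted p = 0.0136). SAA1 and its near-identical paralog SAA2 (-2.41, adjusted p = 0.0189) share reads, so their separate values are uncertain. LCN2, an iron-sequestering defence protein, was at 345 to 1371 CPM in parental and 151 to 440 CPM in knockout tumours (-1.57, edgeR adjusted p = 0.0243). The complement genes CFB (-2.06, edgeR adjusted p = 0.00562) and C3 (-0.77, adjusted p = 0.0404) were also lower. The groups overlapped for each of these 5 genes. Parental replicate 3 was the highest tumour for SAA1, SAA2, LCN2 and CFB, as it was for the members NFKBIZ and TNFAIP2.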
